A study of Arabidopsis thaliana with 24 samples.

Results

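The shoot response to salt at 3 h was set against the shoot level at 0.5 h, the earliest time sampled, in whole-genome expression arrays of Arabidopsis thaliana. The comparison used 4 of the study's 24 arrays, chosen by their labelled tissue and time: 2 arrays of shoots at 3 h and 2 arrays of shoots at 0.5 h. All plants were accession Col-0, kept in boxes on rafts over Murashige and Skoog medium in a growth room at 24 °C and 50% humidity with 16 h days. On day 16, after 3 h of light, sodium chloride was mixed into the medium to 150 mM, so every plant in both groups carried the treatment. The study sampled roots and shoots at 0.5, 1, 3, 6, 12 and 24 h, with 2 arrays in each of 12 groups. The root arrays of the same 2 times served here to test where shoots differed and to check tissue markers. All 24 arrays, roots included, also entered the brightness limit and the estimate of spread behind the shoot p-values. No untreated plants were analysed here, and shoots at 3 h of salt had 6 h of light that day, against 3.5 h for shoots at 0.5 h. Time after salt and time of day therefore cannot be told apart in any of the differences. Nothing in the labels ties the 2 arrays of a group to separate cultures; a p-value here therefore weighs a difference against the spread between arrays, which may be technical only.

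Salt around the roots lowers the water potential and brings sodium into the plant, and shoots respond to the lack of water before much of the ion arrives. Much of the known shoot response runs through abscisic acid, a hormone that closes stomata and switches on genes for protective proteins. Among these are the late embryogenesis abundant (LEA) proteins and the dehydrins, hydrophilic proteins that protect membranes and enzymes in drying or freezing cells. Growth is slowed at the same time, and wall-loosening enzymes such as expansins and xyloglucan endotransglucosylases act in that growth.

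Of 15199 probe sets bright enough to be tested, 1608 (10.6%) differed between shoots at 3 h and shoots at 0.5 h by at least 2-fold at an adjusted p under 0.05 in limma, which is the meaning of "called" throughout. The called probe sets were 836 higher (5.5%) and 772 lower (5.08%) at 3 h, and the median difference over all tested probe sets was 0.01 on the log2 scale. Differences of at least 4-fold were found for 259 called probe sets that were higher and 164 that were lower. The array signals are bulk tissue values, in which fewer cells of a type and less RNA per cell cannot be told apart. Signals correlated between the 2 arrays of a time with r = 0.977 at 3 h and r = 0.981 at 0.5 h across probe sets, and between arrays of different times with r between 0.899 and 0.914; probe sets are not independent replicates. The labelled tissue was borne out by its markers, since 11 nuclear photosynthesis genes summed to 48417 and 49061 in shoots at 3 h, against 44684 and 49973 in shoots at 0.5 h, while the root arrays of these times summed to between 479 and 963. 3 root markers summed to 549 and 1073 in shoots at 3 h, against 625 and 446 in shoots at 0.5 h, and to between 2873 and 3372 in the roots; their part in the shoot differences was not tested.

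**Figure D1:**
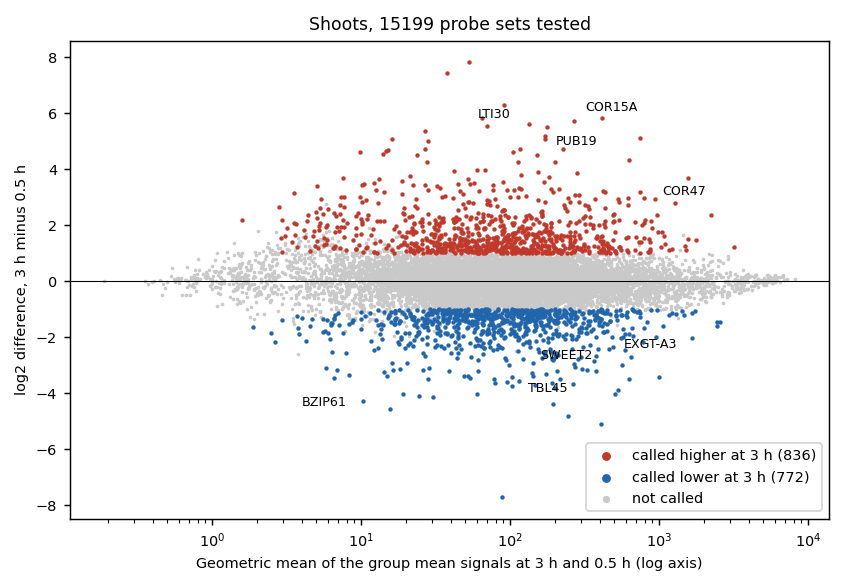
Each point is 1 of the 15199 tested probe sets in shoots; the horizontal axis is the geometric mean of the group mean signals at 3 h and 0.5 h on a log axis and the vertical axis is the log2 difference, 3 h minus 0.5 h. The 836 probe sets called higher and the 772 called lower are coloured, and among the points with a name LTI30 lies at 5.63 and BZIP61 at -4.27.

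Among genes with a symbol, the 12 with the highest called differences held 6 genes of the LEA and dehydrin list and the wall-loosening gene EXPA16. The 12 with the lowest held 3 genes of the wall-loosening list, of which 4 of 27 tested were called higher and 3 lower. The LEA and dehydrin list had 11 tested genes, and 1171 genes with a symbol were tested with 1 probe set each. The highest were LEA4-5, COR15A, LTI30, PUB19, COR15B, CHI, LEA18, CYP71B26, COR47, ALDH7B4, EXPA16 and SWEET4, with log2 differences between 2.55 and 5.82. The lowest were BZIP61, TBL45, EXLA1, JKD, ARR15, XTH19, CSLA03, SWEET2, GT2, PUB22, EXGT-A3 and AKINBETA1, with log2 differences between -4.27 and -1.92. The rule that picked these 24 genes required arrays that did not overlap between the times, and over all tested probe sets 67.2% met this, 34.2% with the 3 h arrays higher and 33% with them lower.

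**Figure D2:**
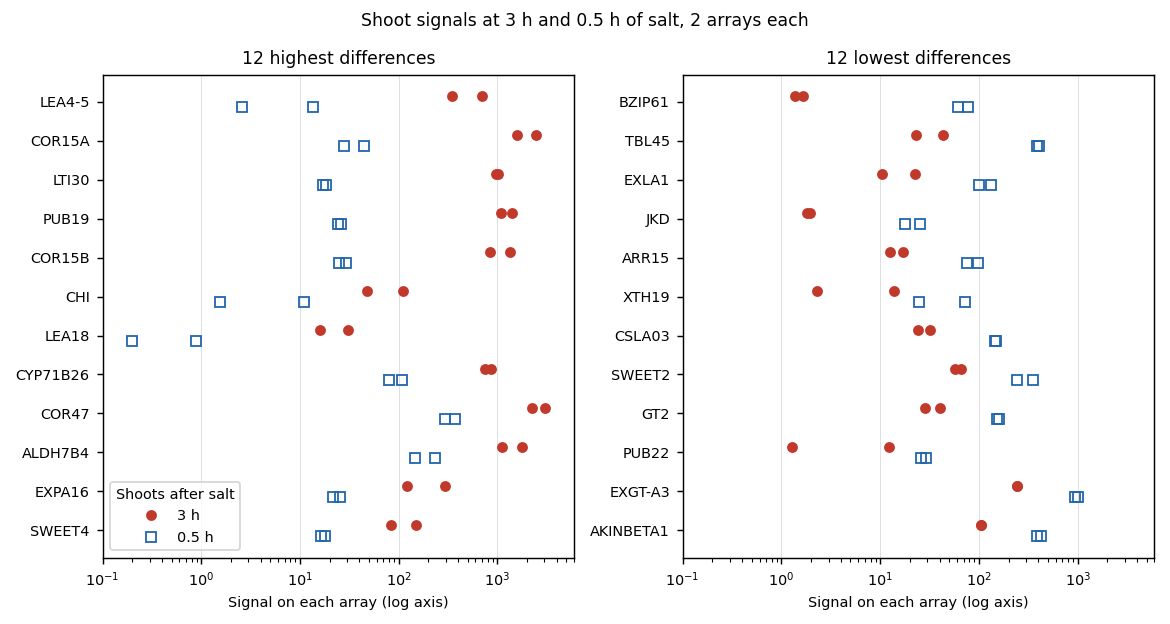
Signals on each array (log axis) of the 12 genes with a symbol that had the highest called differences (left) and the 12 with the lowest (right); filled red circles are the 2 arrays of shoots at 3 h and open blue squares the 2 arrays of shoots at 0.5 h. The 3 h circles sit right of the 0.5 h squares in the left panel and left of them in the right panel for all genes drawn, by selection.

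The list of LEA proteins and dehydrins had the highest median of all lists. Of 22 genes on the list, 13 had a probe set of 1 gene in the annotation used, and 11 were bright enough to be tested. In that annotation 8794 probe sets had no gene, so the others are not shown to be absent from the array. Of the 11 tested, 9 were called higher at 3 h and 0 lower by limma (10 and 0 at an unadjusted p under 0.05). This stands beside 9.6% called, 5.23% higher and 4.37% lower, among the 8048 genes tested with 1 probe set each. A gene passes the brightness limit more easily where it is high, so the count speaks for these 11 genes alone. Their median log2 difference was 4.72, against 0.01 over those 8048 genes. LTI30 (AT3G50970) encodes a cold-induced dehydrin. Its signal stood at 1014 and 965 at 3 h, against 18.5 and 17.3 at 0.5 h, a log2 difference of 5.63 ± 0.18 (SE) with limma's adjusted p = 9.75e-12. The arrays of each time lay close together for LTI30, and the times were far apart. COR15A (AT2G42540) encodes a small protein of the plastid stroma that protects membranes in the cold. It measured 2439 and 1569 at 3 h, against 44.9 and 27.8 at 0.5 h, a difference of 5.70 ± 0.79 (adjusted p = 7.43e-05). Its neighbour in the RefSeq gene table, the related gene COR15B (AT2G42530), gave 1332 and 839 at 3 h, against 28.98 and 24.8 at 0.5 h, and differed by 5.19 ± 0.38 (adjusted p = 1.19e-07). Both genes were low on the 2 arrays at 0.5 h and above 800 on the 2 arrays at 3 h; whether their probe sets share target RNA was not tested.

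COR47 (AT1G20440), an acidic dehydrin, was already well above the median array signal at 0.5 h, and stood at 3017 and 2224 at 3 h, against 296 and 375 at 0.5 h, a log2 difference of 2.95 ± 0.30 (adjusted p = 4.13e-06). LEA4-5 (AT5G06760), a LEA protein, reached 693 and 344 at 3 h, against 2.61 and 13.4 at 0.5 h, a difference of 5.82 ± 0.58 (adjusted p = 2.78e-06). The arrays at 3 h differed from each other by about 2-fold, and both lay far above the 0.5 h arrays. LEA18 (AT2G35300) stayed dim, at 30.8 and 15.9 at 3 h, against 0.199 and 0.88 at 0.5 h (3.16 ± 0.78, adjusted p = 0.00748). 2 further genes of the list are known here only by locus code. AT3G02480 measured 991 and 425 at 3 h, against 0.662 and 22.5 at 0.5 h, and had the highest difference of all genes tested with 1 probe set each, 6.27 ± 0.67 (adjusted p = 5.58e-06). AT3G17520 measured 229.8 and 95.3 at 3 h, against 1.11 and 7.65 at 0.5 h (4.72 ± 0.85, adjusted p = 0.000761). Signals of a few units, as at 0.5 h in these genes, lie near the bottom of the array scale, where the added constant (given with the processing steps) sets much of the size of a log2 difference. The ninth called member, AT4G36600, named after its value was seen, was near the limit at 23.8 and 10.3 at 3 h, against 6.46 and 2.67 at 0.5 h (1.47 ± 0.51, adjusted p = 0.0443), and lost its call in 3 of the 4 fits that left out 1 shoot array (adjusted p up to 0.34) and with 1 h as the reference (0.63). LEA18 lost its call without the first 3 h array (adjusted p = 0.0797) or without the first 0.5 h array (adjusted p = 0.0529).

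Beyond the LEA proteins, genes known to respond to abscisic acid or drought moved in both directions. Of 7 tested genes on the list of abscisic acid and stress-inducible genes, 4 were called higher and 1 lower, with a median of 1.19, beside 5.23% higher and 4.37% lower among all genes tested with 1 probe set each. Of 15 further stress-inducible genes, drawn from genes with a symbol, 3 were called higher and 1 lower, with a median of 0.24, beside 7.17% higher and 4.27% lower among all genes with a symbol. PUB19 (AT1G60190), a U-box ubiquitin ligase of drought and abscisic acid signalling, had the highest difference of both lists. Its signal reached 1408 and 1078 at 3 h, against 25.9 and 24.6 at 0.5 h, which is a difference of 5.49 ± 0.39 (adjusted p = 9.38e-08). The second-ranked gene was ALDH7B4 (AT1G54100), a turgor-responsive aldehyde dehydrogenase that detoxifies reactive aldehydes. It reached 1796 and 1113 at 3 h, against 145 and 236 at 0.5 h (2.92 ± 0.27, adjusted p = 1.42e-06), and the arrays at 3 h were again apart from each other but not overlapping those at 0.5 h. ZW9, given no role here, was at 1386 and 883 at 3 h, against 229 and 198 at 0.5 h (2.37 ± 0.23, adjusted p = 2.41e-06). RD2 (AT2G21620), a desiccation-responsive gene, stood at 566 and 455 at 3 h, against 169 and 172 at 0.5 h (1.56 ± 0.22, adjusted p = 0.000104). HIS1-3 (AT2G18050) encodes a linker histone variant known to rise in drought. It was at 100.3 and 69.97 at 3 h, against 23.02 and 19.1 at 0.5 h (1.89 ± 0.58, adjusted p = 0.0255). DI21 (AT4G15910), a drought-induced gene, was at 170.0 and 152 at 3 h, against 72.7 and 65.8 at 0.5 h (1.19 ± 0.31, adjusted p = 0.00932).

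Not every gene of these lists was higher at 3 h. PUB22 (AT3G52450), a U-box ligase related to PUB19 that limits drought and immune responses, fell to 1.29 and 12.4 at 3 h, against 29.4 and 25.8 at 0.5 h (-2.06 ± 0.54, adjusted p = 0.0105). PUB22 was dim in shoots and was not tested when the brightness limit was set on shoot arrays alone. The abscisic acid and stress list then had 0 lower calls in place of 1. SRC2 (AT1G09070), a membrane-associated protein of the cold response, fell to 341 and 404 at 3 h, against 1198 and 1150.2 at 0.5 h (-1.66 ± 0.24, adjusted p = 9.66e-05). PUB23 (AT2G35930), the close relative of PUB22, was not called, at 9.87 and 33.4 at 3 h, against 36.6 and 38.2 at 0.5 h (-0.93 ± 0.56, adjusted p = 0.255). The RING finger gene XERICO (AT2G04240), whose product promotes abscisic acid build-up, was just under the fold limit and not called, at 311 and 266 at 3 h, against 143 and 154 at 0.5 h (0.95 ± 0.15, adjusted p = 0.000329); against 1 h it passed, with 1.33. Over 8 U-box ligases, 1 was called higher and 1 lower, and PUB19 was the higher one; with shoot arrays alone (adjusted p = 0.00339), with only the arrays compared or without the root arrays of 12 h, PUB26 (-1.42) was called lower too. HIS1-3 lost its call without any 1 of the 4 shoot arrays (adjusted p between 0.0565 and 0.155) and with 1 h as the reference, DI21 without the second 0.5 h array or the first 3 h array (adjusted p up to 0.0688), and PUB22 without the first 0.5 h array or the first 3 h array (adjusted p up to 0.202), so the 4 higher calls became 2 without the first 3 h array or without the second 0.5 h array; against 1 h, PUB22 (-1.30) and SRC2 (-0.37) were not called.

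Genes of starch and sugar handling were higher at 3 h for 4 of 11 tested and lower for 1, with a median of 0.41, beside 11.4% called, 7.17% higher and 4.27% lower, among genes with a symbol, from which this list was drawn. 3 of the 4 act on starch in the plastid. APL3 (AT4G39210) and APL4 (AT2G21590) encode large subunits of ADP-glucose pyrophosphorylase, the enzyme that makes the precursor of starch. APL3, which also counts among the 4 higher genes of the abscisic acid list, measured 247 and 134 at 3 h, against 45.4 and 33.4 at 0.5 h (2.16 ± 0.35, adjusted p = 0.000272). APL4 measured 97.9 and 64.1 at 3 h, against 20.3 and 11 at 0.5 h (2.24 ± 0.35, adjusted p = 0.000191). DPE1 (AT5G64860), the plastid disproportionating enzyme of starch breakdown, was at 280.4 and 278 at 3 h, against 68.5 and 48.6 at 0.5 h, a log2 difference of 2.23 ± 0.19 (adjusted p = 3.91e-07). The 2 arrays of DPE1 at 3 h were nearly equal. TMT2 (AT4G35300), which moves sugars into the vacuole, was at 309 and 271 at 3 h, against 74.2 and 63.9 at 0.5 h (2.04 ± 0.33, adjusted p = 0.000345).

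The lower gene of that list was ATSPS4F (AT4G10120), a sucrose phosphate synthase, named after its value was seen, which fell to 182 and 304 at 3 h, against 605 and 689.6 at 0.5 h (-1.45 ± 0.37, adjusted p = 0.00956) and lost its call without the second 0.5 h array or the first 3 h array (adjusted p up to 0.123). SWEET proteins carry sugars across membranes, and 2 of 8 were called higher and 1 lower. Over all genes tested with 1 probe set each, 5.23% were called higher and 4.37% lower. SWEET4 (AT3G28007) was at 151 and 82.9 at 3 h, against 16.4 and 18.1 at 0.5 h (2.55 ± 0.33, adjusted p = 3.60e-05). SAG29 (AT5G13170), a SWEET gene first known from senescing leaves, was at 967 and 863 at 3 h, against 206 and 199 at 0.5 h (2.16 ± 0.51, adjusted p = 0.00561). SWEET2 (AT3G14770), a vacuolar member, fell to 57.4 and 65.7 at 3 h, against 242 and 350.4 at 0.5 h (-2.21 ± 0.31, adjusted p = 7.75e-05). The family thus split, with the other 5 tested members not called. AKINBETA1 (AT5G21170), a beta subunit of SnRK1, the kinase of low-energy signalling, fell to 106 and 105 at 3 h, against 388 and 425 at 0.5 h (-1.92 ± 0.22, adjusted p = 1.05e-05); against 1 h it was under the fold limit at -0.76.

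In shoots 0 of 11 nuclear photosynthesis genes passed limma's test with the fold limit and 0 had an unadjusted p under 0.05, with a median of 0.00 and a range from -0.51 to 0.23. Of 69 plastid-encoded genes, 0 were called higher and 1 lower (0 and 4 at an unadjusted p under 0.05), with a median of -0.23, and 54 of the 69 had a value below 0. The called one, rpoB (ArthCp014), a subunit of the plastid's own RNA polymerase, was at 135 and 146 at 3 h, against 298 and 301 at 0.5 h (-1.08 ± 0.32, adjusted p = 0.0206), and lost its call without any 1 of the 4 shoot arrays (adjusted p between 0.068 and 0.107) and against 1 h (-0.49). With only the arrays compared in the fit, 3 plastid-encoded genes were called lower, rpoB with rbcL (-1.55, adjusted p = 0.0136) and ndhH (-1.01, adjusted p = 0.00164); rbcL, the furthest member, was at 189 and 445 at 3 h, against 846 and 861 at 0.5 h, and was not called with all arrays (adjusted p = 0.0769). Single genes tied to light, however, were called, beside 7.17% called higher and 4.27% lower among all genes with a symbol. PORB (AT4G27440) catalyses the light-dependent step of chlorophyll synthesis. It was at 1946 and 1887 at 3 h, against 592 and 539 at 0.5 h (1.76 ± 0.32, adjusted p = 0.00078), and it was the 1 gene called among 11 of tetrapyrrole synthesis. The median of those 11 was -0.08, and 7 had a value below 0. PIFI (AT3G15840), a plastid protein of chlororespiration, was at 1893 and 1748 at 3 h, against 756 and 895 at 0.5 h (1.14 ± 0.32, adjusted p = 0.0165). PIFI was the 1 called of 20 genes of photosynthesis assembly, whose median was -0.06, with 11 below 0. GI (AT1G22770), GIGANTEA, a clock gene with a daily rhythm that peaks late in the day, was at 260.2 and 209.9 at 3 h, against 53.3 and 68.2 at 0.5 h (1.92 ± 0.20, adjusted p = 5.90e-06). GI was the 1 called of 3 clock genes tested. HYH (AT3G17609), a bZIP factor related to HY5 that acts in light signalling, fell to 24.2 and 24.4 at 3 h, against 62.4 and 79.9 at 0.5 h (-1.46 ± 0.31, adjusted p = 0.00248). The arrays of the 2 times did not overlap for any of these genes, as was so for 67.2% of all tested probe sets. PIFI lost its call in 3 of the 4 fits without 1 shoot array (adjusted p up to 0.107).

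Of 27 tested genes of wall loosening (expansins, xyloglucan endotransglucosylases and family 9 glucanases), 4 were called higher and 3 lower, with a median of 0.14, beside 7.17% higher and 4.27% lower among all genes with a symbol. EXPA16 (AT3G55500), an alpha-expansin, was at 297 and 121 at 3 h, against 21.5 and 25.4 at 0.5 h (2.91 ± 0.73, adjusted p = 0.00815). EXPB1 (AT2G20750), a beta-expansin, was at 68.6 and 67.7 at 3 h, against 31.5 and 24.95 at 0.5 h (1.22 ± 0.34, adjusted p = 0.0159). The glucanase family genes GH9C2 and GH9B8 were the other higher members. GH9C2 measured 728 and 608 at 3 h, against 251 and 189 at 0.5 h (1.60 ± 0.31, adjusted p = 0.00119). GH9B8 measured 133 and 178 at 3 h, against 80.1 and 40.8 at 0.5 h (1.39 ± 0.31, adjusted p = 0.00407). In the opposite direction, EXGT-A3 (AT2G01850), a xyloglucan endotransglucosylase bright in shoots, fell to 244 and 242 at 3 h, against 941 and 1008 at 0.5 h (-1.99 ± 0.24, adjusted p = 2.05e-05). EXLA1 (AT3G45970), an expansin-like gene, fell to 22.6 and 10.5 at 3 h, against 101 and 131 at 0.5 h (-2.73 ± 0.60, adjusted p = 0.00323). XTH19 (AT4G30290) fell to 2.32 and 13.8 at 3 h, against 24.7 and 71.6 at 0.5 h (-2.39 ± 0.69, adjusted p = 0.0184), the arrays within each time lying far apart. With the brightness limit set on shoot arrays alone, XTH19 was not tested. Its neighbour XTH18 was not called, at 1.34 and 6.05 at 3 h, against 2.15 and 42.8 at 0.5 h (-1.37 ± 1.01, adjusted p = 0.363), and its times overlapped.

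Other wall genes fell too, beside 4.27% called lower among all genes with a symbol. TBL45 (AT2G30010) belongs to the TRICHOME BIREFRINGENCE-LIKE family, whose studied members add acetyl groups to wall polysaccharides. Its signal fell to 23.3 and 43.1 at 3 h, against 389 and 408 at 0.5 h, a log2 difference of -3.56 ± 0.29 (adjusted p = 3.66e-07), and it was the 1 member of 14 tested that was called; without the second 3 h array TBL26 (-1.29, adjusted p = 0.0218) was called lower too, as it was against 1 h (-1.78). CSLA03 (AT1G23480), of the glucomannan synthase family, fell to 24.4 and 31.7 at 3 h, against 149 and 145 at 0.5 h (-2.31 ± 0.37, adjusted p = 0.000296). With 1 h in place of 0.5 h as the reference, GH9C2 (0.18), EXGT-A3 (-0.25), EXLA1 (-1.02), CSLA03 (-0.83), XTH19 (-1.36) and GH9B8 (0.95) were not called, so the higher wall-loosening members became 2 and the lower ones 1. Without 1 shoot array, calls were lost for EXPA16 (adjusted p up to 0.104), EXPB1 (up to 0.113), GH9B8 (0.0832) and XTH19 (up to 0.234), which left 2 higher wall-loosening members without the second 0.5 h array or the first 3 h array; without the second 3 h array the lower members became 6 in place of 3, EXPA7 among them (-1.79, adjusted p = 0.044).

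Of 11 bZIP factors 0 were called higher and 2 lower by limma, BZIP61 and HYH (1 higher and 3 lower at an unadjusted p under 0.05). For this list and the tetraspanins below, the share over all genes with a symbol was 7.17% higher and 4.27% lower. For the WRKY genes below, the share over all genes tested with 1 probe set each was 5.23% higher and 4.37% lower. BZIP61 (AT3G58120), a bZIP transcription factor, had the lowest difference of all genes with a symbol, falling to 1.67 and 1.38 at 3 h, against 61.9 and 78.3 at 0.5 h (-4.27 ± 0.72, adjusted p = 0.000461). Both arrays at 3 h were at the bottom of the scale. JKD (AT5G03150), JACKDAW, a zinc finger factor known from root tissue patterning, fell to 1.81 and 1.96 at 3 h, against 25.5 and 17.7 at 0.5 h (-2.52 ± 0.52, adjusted p = 0.00199). JKD was dim in shoots and was not tested with the brightness limit set on shoot arrays alone. GT2 (AT1G76890), a trihelix factor, fell to 28.7 and 40.01 at 3 h, against 161 and 151 at 0.5 h (-2.13 ± 0.30, adjusted p = 9.35e-05). ARR15 (AT1G74890), a type-A response regulator induced by cytokinin, the hormone of cell division and greening, fell to 17.1 and 12.4 at 3 h, against 98.2 and 76.01 at 0.5 h (-2.40 ± 0.41, adjusted p = 0.000505). UGT76C2 (AT5G05860), which glucosylates cytokinins and so inactivates them, fell to 34.6 and 41.3 at 3 h, against 107 and 122 at 0.5 h (-1.54 ± 0.23, adjusted p = 0.000122). WRKY22 (AT4G01250), a factor of immune signalling, fell to 15.2 and 13.4 at 3 h, against 43.9 and 55.3 at 0.5 h (-1.64 ± 0.49, adjusted p = 0.022), the 1 called of 3 WRKY genes tested; WRKY53 (-1.22) was called lower too with shoot arrays alone (adjusted p = 0.0188), with only the arrays compared (0.00777) and without the root arrays of 12 h (0.00324). Tetraspanins are membrane proteins that organise other proteins, and 1 of 8 was called higher and 2 lower. TET3 (AT3G45600) was at 354 and 315 at 3 h, against 91.2 and 102 at 0.5 h (1.77 ± 0.13, adjusted p = 1.70e-07). TET8 (AT2G23810) fell to 156 and 183 at 3 h, against 633 and 602 at 0.5 h (-1.86 ± 0.38, adjusted p = 0.00182). The other lower one, TET10 (-1.62, adjusted p = 0.0104), lost its call in 3 of the 4 fits without 1 shoot array (adjusted p up to 0.0731). WRKY22 lost its call without any 1 of the 4 shoot arrays (adjusted p between 0.0627 and 0.127), and against 1 h the values of WRKY22 (-0.42), TET8 (-0.16), ARR15 (-1.12) and JKD (-1.27) were not called.

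A few genes of protein turnover and of metabolism were called, beside 7.17% called higher and 4.27% lower among all genes with a symbol. UBC32 (AT3G17000), a ubiquitin-conjugating enzyme of the endoplasmic reticulum known to act in salt stress, was at 514 and 352 at 3 h, against 129.7 and 143 at 0.5 h (1.63 ± 0.28, adjusted p = 0.000461), the 1 called of 12 such enzymes. Fes1B (AT3G53800), of the Hsp70 nucleotide exchange family, was at 264 and 222 at 3 h, against 62.5 and 57.4 at 0.5 h (1.97 ± 0.28, adjusted p = 8.01e-05), the 1 called of 18 chaperone genes. The autophagy genes ATG8D and ATG8E encode ubiquitin-like proteins of the autophagosome membrane and went in opposite directions here. ATG8D was at 92.5 and 68.6 at 3 h, against 37.1 and 36.5 at 0.5 h (1.07 ± 0.25, adjusted p = 0.00567). ATG8E fell to 189.5 and 181 at 3 h, against 371 and 437 at 0.5 h (-1.11 ± 0.20, adjusted p = 0.000762). Against 1 h the value of ATG8E turned to 0.68, and without the second 0.5 h array it was just under the fold limit, while ATG8D was not called against 1 h (0.64) or without the first 3 h array (adjusted p = 0.0773).

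In metabolism, CYP71B26 (AT3G26290), a cytochrome P450, was at 865 and 748 at 3 h, against 80.3 and 107 at 0.5 h (3.09 ± 0.26, adjusted p = 4.61e-07). CHI (AT2G43570), a chitinase, was at 110.0 and 48.2 at 3 h, against 1.54 and 10.9 at 0.5 h (3.42 ± 0.61, adjusted p = 0.000659). MGL (AT1G64660), methionine gamma-lyase, breaks methionine down toward isoleucine synthesis. It was at 213 and 178 at 3 h, against 32.5 and 42.6 at 0.5 h (2.32 ± 0.41, adjusted p = 0.000677), the furthest of 3 called higher among 17 genes of amino acid breakdown, of which 1 was called higher against 1 h. UGT84A3 (AT4G15490), which glucosylates hydroxycinnamic acids, was at 175 and 147 at 3 h, against 31.8 and 37.6 at 0.5 h (2.14 ± 0.23, adjusted p = 6.52e-06). BGLU44 (AT3G18080), a beta-glucosidase, was at 645 and 558 at 3 h, against 152 and 194 at 0.5 h (1.79 ± 0.26, adjusted p = 0.000101). NDB2 (AT4G05020), a mitochondrial enzyme that oxidises NADH outside the main respiratory chain, was at 194 and 161 at 3 h, against 40.99 and 51.2 at 0.5 h (1.90 ± 0.32, adjusted p = 0.000492). Called higher and lower were 1 and 1 of 11 CYP71B genes, 1 and 1 of 12 defence genes and 3 and 2 of 33 UDP-glycosyltransferases. For beta-glucosidases the counts were 2 and 0 of 13, and for mitochondrial dehydrogenases 1 and 0 of 12. Among all genes with a symbol 7.17% were called higher and 4.27% lower. All 6 genes given with values lay above their 0.5 h arrays on both 3 h arrays, as did 34.2% of all tested probe sets. UGT84A3 was just under the fold limit against 1 h, at 0.96.

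Most called genes have no symbol in the annotation used: of the 836 probe sets called higher, 84 belonged to 1 gene with a symbol, 338 to 1 gene known by a locus code, 18 to several genes and 396 to none listed. The 772 called lower divided into 50, 307, 12 and 403 in the same order. Among locus-code genes outside the LEA list, AT2G21820 reached 241 and 173 at 3 h, against 0.869 and 6.10 at 0.5 h (5.35 ± 0.80, adjusted p = 0.000139). AT1G11210 was at 166 and 107 at 3 h, against 2.73 and 1.02 at 0.5 h (5.09 ± 0.36, adjusted p = 8.96e-08). AT2G41190 was at 1325 and 765 at 3 h, against 20.9 and 36.2 at 0.5 h (5.08 ± 0.56, adjusted p = 8.58e-06). AT1G20030 was at 241 and 159 at 3 h, against 4.19 and 3.65 at 0.5 h (5.02 ± 0.63, adjusted p = 2.78e-05). All 4 were low on both 0.5 h arrays. The lowest was AT5G19120, which fell to 27.5 and 65.3 at 3 h, against 1179 and 1368 at 0.5 h (-4.83 ± 0.34, adjusted p = 8.39e-08). AT1G33055 fell to 1.71 and 2.93 at 3 h, against 79.7 and 131 at 0.5 h (-4.54 ± 0.33, adjusted p = 1.15e-07), and AT3G15450 to 276 and 329 at 3 h, against 2959 and 3550.3 at 0.5 h (-3.42 ± 0.30, adjusted p = 7.07e-07). AT2G20670, AT5G14120 and AT2G30600 complete the 6 lowest, with -3.66 ± 0.73 (adjusted p = 0.00163), -3.49 ± 0.30 (adjusted p = 5.53e-07) and -3.48 ± 0.24 (adjusted p = 7.61e-08). 3 of these 6 depended on the reference time: against 1 h, AT1G33055 (-0.28) and AT3G15450 (-0.51) were not called, and AT2G20670 turned to 2.11.

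The furthest differences of all came from probe sets with no gene in the annotation used, named after their values were seen. Probe set 245627_at was at 1244 and 913 at 3 h, against 1.94 and 3.296 at 0.5 h (7.81 ± 0.56, adjusted p = 9.38e-08). Probe set 248352_at was at 1281 and 362 at 3 h, against 2.34 and 1.18 at 0.5 h (7.44 ± 0.90, adjusted p = 2.12e-05). In the other direction, 252367_at fell to 10.3 and 1.21 at 3 h, against 1238 and 1475 at 0.5 h (-7.70 ± 0.57, adjusted p = 1.19e-07). Probe set 246114_at fell to 58.8 and 77.4 at 3 h, against 2177 and 2632 at 0.5 h (-5.10 ± 0.32, adjusted p = 3.08e-08). In roots the same 4 probe sets differed by 3.32, 1.22, 0.16 and 0.35 on the log2 scale.

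The same times were compared in roots, to ask which shoot differences were matched there. In roots 1246 probe sets (8.2%) were called higher and 738 (4.86%) lower, with a median of -0.19. Of the 836 probe sets called higher in shoots, 175 were also called higher in roots, 13 were called lower there and 648 were not called. Of the 772 called lower in shoots, 71 were called lower in roots, 107 were called higher there and 594 were not called. The difference between the tissues itself, the shoot change minus the root change, was called for 2819 probe sets (18.5%), of which 1468 (9.66%) were higher and 1351 (8.89%) lower in shoots.

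**Figure D3:**
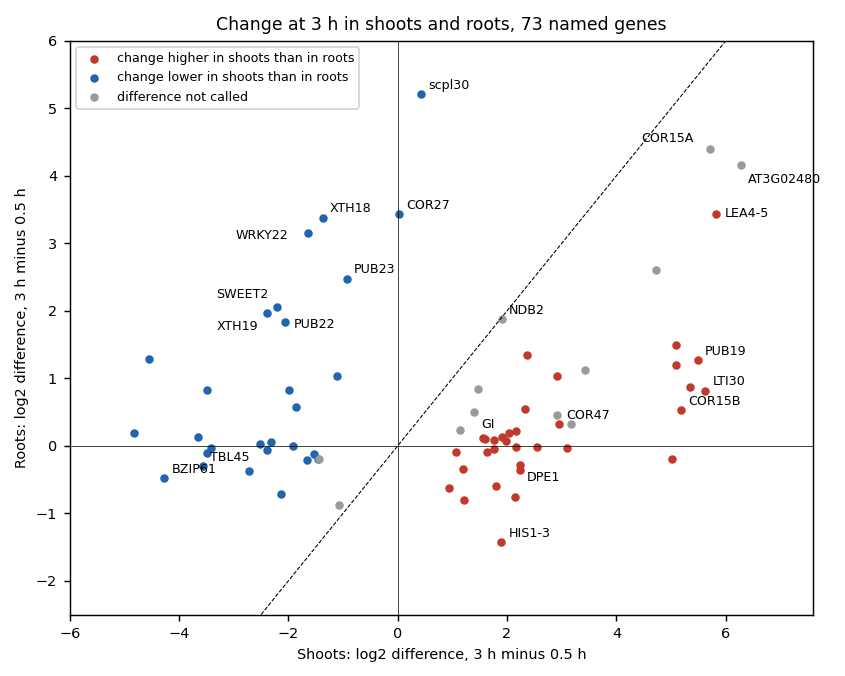
Each point is 1 of 73 genes given here with a log2 difference and its standard error. The horizontal axis is the log2 difference, 3 h minus 0.5 h, in shoots. The vertical axis is the same in roots, and the dashed line marks equal change. Red points changed more in the positive direction in shoots (33 genes) and blue points less (28 genes), by the called difference between tissues, and grey points had no called difference.

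Among the LEA and dehydrin genes, 9 of 11 were called higher in shoots and 4 of 11 in roots, where the median was 0.82. The difference between tissues was called higher in shoots for 4 of the 11, beside 9.66% of all tested probe sets. LTI30 in roots was at 3569 and 3193 at 3 h, against 2106 and 1742 at 0.5 h (0.82 ± 0.18). Its root arrays at 0.5 h were thus already above its shoot arrays at 3 h, and its change was higher in shoots by 4.81 ± 0.25 (adjusted p = 2.68e-08). COR15B differed between the tissues by 4.66 ± 0.54 (adjusted p = 4.36e-05) and COR47 by 2.63 ± 0.43 (adjusted p = 0.000575). COR15A, in contrast, was called higher in both tissues. Its roots were at 154 and 83.2 at 3 h, against 1.30 and 6.41 at 0.5 h (4.39 ± 0.79), and no difference between tissues was called (1.31 ± 1.12, adjusted p = 0.405). AT3G02480 and AT3G17520 were likewise called higher in both tissues, with no called difference between tissues (limma's adjusted p = 0.106 and 0.201). LEA18 and AT4G36600, not called in roots, had no called difference either. NDB2 changed by 1.87 ± 0.32 in roots as well, and the difference between its tissues was 0.02 ± 0.46 (adjusted p = 0.975). Of the starch list 1 gene was called in roots, as lower, and the difference between tissues was called in favour of shoots for 6 of its 11 genes, DPE1 among them (2.52 ± 0.26, adjusted p = 1.91e-05).

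Tested members of some signalling lists were called higher in roots and not in shoots, a contrast that the brightness limit favours. The brightness limit could be passed on root arrays alone, which brings in genes that are dim in shoots. The counts that follow therefore speak for the tested genes only, and they do not show that the lists as a whole differ between tissues. CML37, of the touch and calcium list, was at 0.812 and 8.77 in shoots at 3 h, against 732 and 777 in roots at 3 h. All 5 touch and calcium genes, all 3 jasmonate genes, all 3 WRKY genes and 5 of 7 auxin genes were called higher in roots. None of these was called higher in shoots by limma, and none had a positive shoot difference at an unadjusted p under 0.05. The difference between tissues was called lower in shoots for 5, 3, 3 and 4. On a second jasmonate list 4 of 8 genes were called higher in roots, with 4 tissue differences called lower in shoots. Of 2 rapid zinc finger and ethylene response factor genes 1 was called higher in roots, with 0 tissue differences called. Over all tested probe sets, 8.2% were called higher in roots and 8.89% had a tissue difference called lower in shoots. WRKY6 depended on 1 array: it was at 19.9 and 17.9 at 3 h in shoots, against 5.40 and 29.4 at 0.5 h, and was called higher without the second 0.5 h array (1.47, adjusted p = 0.0388) and against 1 h (1.87, adjusted p = 0.0176). Of the 8 U-box ligases 6 were called higher in roots, and PUB22 went in opposite directions: in roots it was at 347 and 491 at 3 h, against 107 and 123 at 0.5 h (1.83 ± 0.54, adjusted p = 0.0159), and the tissues differed by -3.89 ± 0.76 (adjusted p = 0.00195). WRKY22 in roots was at 289 and 332 at 3 h, against 33.3 and 32.8 at 0.5 h, and its tissues differed by -4.79 ± 0.69 (adjusted p = 0.000223). SWEET2 rose in roots to 178 and 138 at 3 h, against 34.1 and 37.7 at 0.5 h (2.06 ± 0.31, adjusted p = 0.000233), with a difference between tissues of -4.27 ± 0.43 (adjusted p = 1.58e-05). XTH19 did likewise in roots, with 540.3 and 618 at 3 h, against 125 and 173 at 0.5 h (1.96 ± 0.69, adjusted p = 0.0362; difference -4.35 ± 0.97, adjusted p = 0.00448). scpl30, a serine carboxypeptidase-like gene, and COR27, a cold- and clock-regulated gene, were not called in shoots, at 0.43 ± 0.35 and 0.03 ± 0.47, and rose in roots by 5.21 ± 0.35 and 3.43 ± 0.47. Of 7 tubulin genes, 0 were called in shoots (1 higher and 1 lower at an unadjusted p under 0.05). In roots 4 were called lower, beside 4.86% of all tested probe sets.

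**Figure D4:**
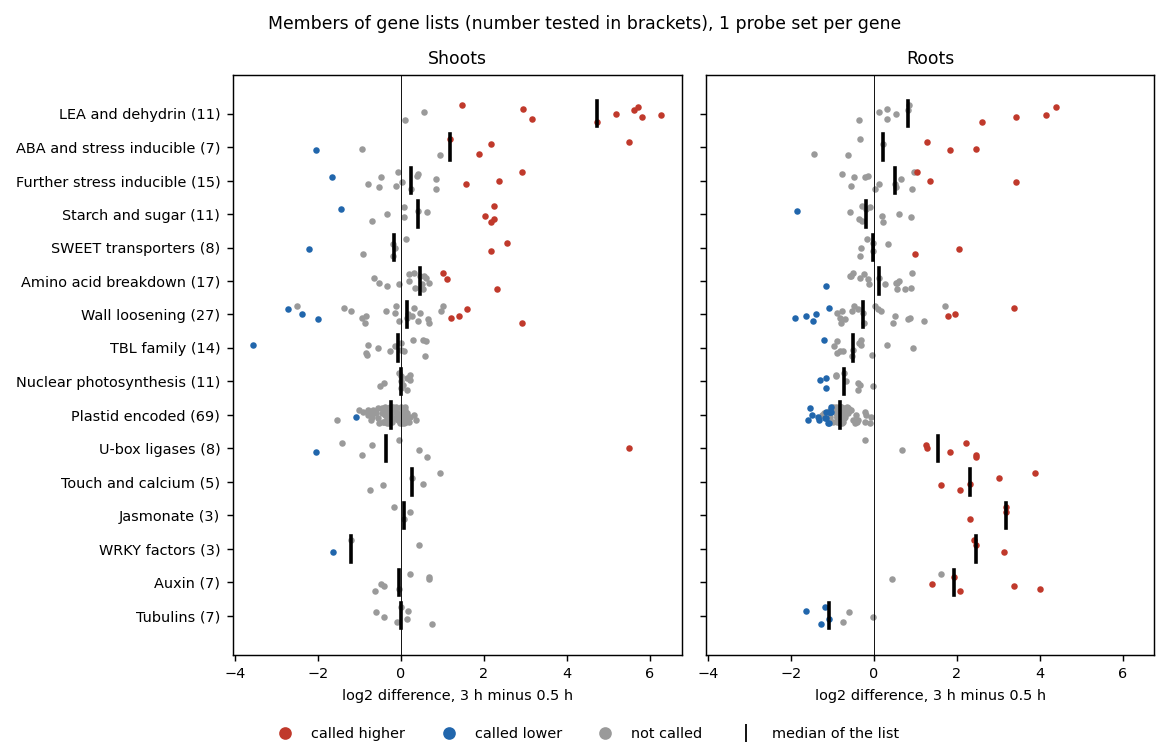
Each point is 1 gene of a list, placed by its log2 difference, 3 h minus 0.5 h, in shoots (left) and roots (right); red points were called higher, blue ones lower, grey ones not called, and the black bar is the list's median. The LEA and dehydrin list has its median at 4.72 in shoots and 0.82 in roots, while the touch and calcium list has it at 0.27 in shoots and 2.31 in roots.

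The other shoot times place the 3 h values in a course of 24 h, as a description, since 3 h and 0.5 h chose the probe sets. Of the 836 called higher, the group mean was highest at 3 h for 291 (34.8%), at 6 h for 228 (27.3%), at 12 h for 100 (12%), at 24 h for 210 (25.1%) and at 1 h for 7 (0.8%). Over all tested probe sets the shares at these times were 13.6%, 15.8%, 16.7%, 16.4% and 19.7%. Of the 772 called lower, the group mean was highest at 0.5 h for 590 (76.4%) and at 1 h for 83 (10.8%), beside 17.8% and 19.7% over all tested probe sets. PUB19 was one of those with the highest mean at 3 h. It averaged 25.2 ± 0.949 at 0.5 h, 84.7 ± 46.04 at 1 h, 1243 ± 234 at 3 h, 353 ± 35.98 at 6 h and 455 ± 14.5 at 24 h (signal, SD, n = 2 each). LTI30 stood at 19.3 ± 1.03 at 1 h, 989 ± 34.7 at 3 h, 1222 ± 26.7 at 6 h, 527 ± 40.4 at 12 h and 1198 ± 241 at 24 h, so its 1 h arrays were still as low as those of 0.5 h. DPE1 and GI were highest at 6 h, with 486 ± 43.8 and 451 ± 64.9, and were back to 97.2 ± 5.90 and 35.9 ± 1.88 at 24 h. APL3 was highest at 24 h, with 717 ± 82.4, and PORB, highest at 6 h with 2688 ± 591, was at 159 ± 39.6 at 24 h. Among the genes that fell, TBL45 was still at 353 ± 25.6 at 1 h. EXGT-A3 had already reached 293 ± 63.4 at 1 h, was at 243 ± 1.49 at 3 h and stood at 823 ± 149 at 24 h. HYH was highest at 1 h, with 124 ± 20.6, and lowest at 6 h, with 7.28 ± 5.44.

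**Figure D5:**
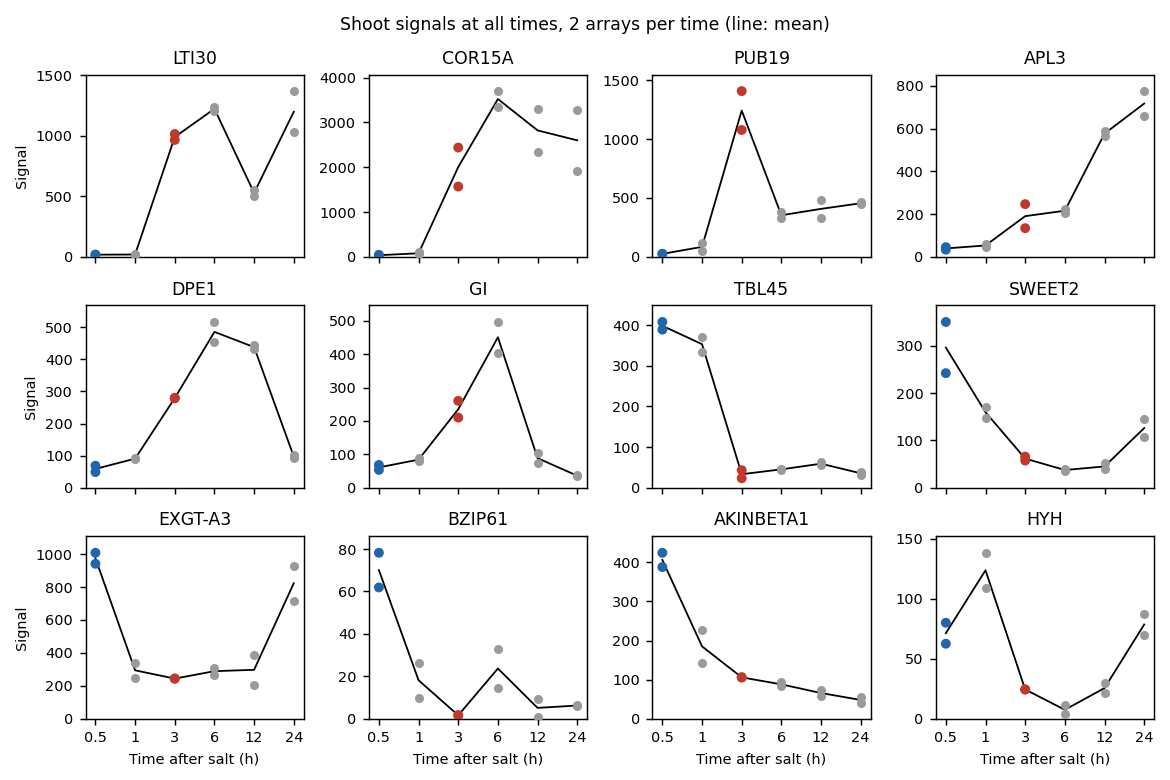
Shoot signals of 12 genes (one panel each, linear axes with their own scale starting at 0) against time after salt in h, with even spacing between the 6 times; points are single arrays, 2 per time, blue at 0.5 h, red at 3 h and grey at the other times, and lines join the means. PUB19 has its highest mean at 3 h, LTI30, COR15A, DPE1 and GI at 6 h and APL3 at 24 h, while TBL45 still has its 1 h arrays near those of 0.5 h and EXGT-A3 does not.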

How the data were processed

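Expression was measured on ATH1 arrays, in 12 shoot and 12 root samples. The authors deposited 1 intensity signal per probe set and array on a linear scale; MAS5 is named per the submitters' processing notes, but no version is given in the sources used, and the trimmed mean was near 100 on every array. Here 64 control probe sets were left out and the working scale was log2 of the signal plus 2.205, the 10th percentile of all values; this understates the change of dim genes. A probe set was tested when at least 2 of 24 arrays reached the median, 41.7, which kept 15199. The 12 group means were estimated together from all 24 arrays (limma 3.58.1, lmFit and eBayes with a trend, R 4.3.3; 12 residual degrees of freedom plus a prior of 4.15), so the spread is shared with all other times and with roots. Tests were two-sided and adjusted by Benjamini-Hochberg over all tested probe sets; called means an adjusted p under 0.05 and at least 2-fold. Errors beside log2 differences are standard errors. The fit was tested on simulated data.

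Gene names come from the platform's annotation and the RefSeq gene table: 13513 probe sets had 1 gene, 503 several and 8794 none listed, and 13436 were matched through gene identifiers. Lists use 1 probe set per gene, the brightest; of 72 genes with several tested probe sets, 4 had calls that differed and 0 opposite ones. Genes were named by rule: the 12 highest and 12 lowest called genes with a symbol, the 6 highest and 6 lowest by locus code, the 4 highest and 4 lowest differences between tissues, and list members. From 32 lists of loci and 36 lists of symbols the members with the lowest p of the shoot difference were taken, or all tested members for some lists. The members and lists were chosen with earlier results of these data known. Lists of abscisic acid metabolism, receptors, phosphatases and transcription factors, SnRK2 kinases, ion transport, DREB factors, aquaporins, gibberellin and brassinosteroid, trichome and vascular genes had no named probe set. The planned count of promoter words was not run, since no sequences were used here. Replicate numbers share nothing that the labels state and were not used as a block. Alternatives changed the pseudocount, filter, scaling, trend, arrays fitted, reference time and thresholds, or left out arrays. matplotlib 3.10.9 (Python 3.11.15) drew the figures.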

Additional observations from a re-analysis of the deposited data

Results flagged for a closer look

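The change at 3 h against 0.5 h differed between shoots and roots, by the test of the difference itself (limma, adjusted p under 0.05 and at least 2-fold), for 61 of the 73 genes given with a log2 difference and its standard error, 33 in the positive and 28 in the negative direction. These genes were picked with their shoot changes known, and 18.5% of all tested probe sets had such a call. All values are log2, the shoot change minus the root change. Genes given without a standard error were not counted. Of these, CML37 (-2.96, limma's adjusted p = 0.0319) and WRKY6 (-2.02, limma's adjusted p = 0.0462) had a called difference too.

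On the positive side, genes of the LEA, abscisic acid and stress lists were LTI30 4.81, COR15B 4.66, COR47 2.63, LEA4-5 2.39, PUB19 4.22, HIS1-3 3.32, ALDH7B4 1.88, XERICO 1.57, DI21 1.53, RD2 1.44 and ZW9 1.02. Starch and sugar genes were APL4 2.60, SWEET4 2.58, DPE1 2.52, SAG29 2.18, APL3 1.95 and TMT2 1.85. Light and clock genes were GI 1.79 and PORB 1.67, and wall genes were EXPB1 2.02 and GH9C2 1.50. Among genes of turnover, metabolism and membranes were CYP71B26 3.11, UGT84A3 2.89, BGLU44 2.38, Fes1B 1.90, TET3 1.82, MGL 1.77, UBC32 1.72 and ATG8D 1.16. Genes known by locus code were AT1G20030 5.21, AT2G21820 4.49, AT2G41190 3.88 and AT1G11210 3.59.

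On the negative side, genes called lower in shoots and higher in roots were WRKY22 -4.79, XTH19 -4.35, SWEET2 -4.27, PUB22 -3.89, ATG8E -2.14 and AT1G33055 -5.82. Genes not called in shoots but higher in roots were scpl30 -4.78, XTH18 -4.75, PUB23 -3.41 and COR27 -3.40. The others fell in shoots and were not called in roots. These were AT5G19120 -5.02, AT5G14120 -4.31, BZIP61 -3.79, AT2G20670 -3.78, AT3G15450 -3.39, AT2G30600 -3.37, TBL45 -3.26, EXGT-A3 -2.82, JKD -2.55, TET8 -2.43, CSLA03 -2.38, EXLA1 -2.35, ARR15 -2.34, AKINBETA1 -1.92, SRC2 -1.44, UGT76C2 -1.42, GT2 -1.41 and HYH -1.27.

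Leaving out 1 array of either tissue at these times ended the call for 13 of the 61 at least once: ATG8D, DI21, EXLA1, GH9C2, GT2, HYH, JKD, LEA4-5, MGL, PORB, SAG29, XTH18 and ZW9. With 1 h as the reference 36 of the 61 kept their call. Centring each array kept 60 and quantile normalization 57. With the brightness limit set on shoot arrays alone, 55 of the 61 were still tested and all 55 kept their call. Groups of 2 arrays were not tested for outlying arrays.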

How the results depend on the processing

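With 1 h as the reference, 431 probe sets were called lower in place of 772. Of all calls 52.4% were kept, and 5 turned to a call in the opposite direction. The named genes followed here were 89 called genes, taken by the rule or added after their values were seen. Of these 89, 53 kept their call, 31 lost it and 5 changed sign (ATG8E 0.68, CYP71B29 0.20, UGT73B1 0.18, NAI1 0.23 and AT2G20670 2.11). The cause was not tested. The tissue difference gave 1277 calls with this reference, 717 higher and 560 lower. With no fold limit 3692 probe sets were called in shoots, 1837 higher and 1855 lower, and the tissue difference had 2583 higher; at an adjusted p under 0.01 it had 1725, 914 higher and 811 lower. Leaving out 1 array gave 1299 to 1590 calls, 704 to 830 higher and 595 to 765 lower, and for the tissue difference 1989 to 2648, 1023 to 1456 and 966 to 1235. Without 1 shoot array, between 13 and 20 of the 89 genes lost their call. Centring each array on its median gave 1247 higher and 1440 lower tissue differences, against 1468 and 1351. The pseudocount at the 25th percentile left 1286 calls and 78.1% of the calls kept; it ended 9 of the 89 calls, and quantile normalization 5. No call among the 89 was lost with a pseudocount of 1, with centring, with no trend, with shoot arrays alone or without the root arrays of 12 h, whose pair agreed least (r = 0.857). With the brightness limit set on shoot arrays alone, 83 of the 89 were still tested and all 83 kept their call. PUB22, JKD and XTH19 were among those no longer tested. Over all probe sets 89.2% of the calls were kept with this limit.

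With the replicate number as a block 1599 probe sets were called, 835 higher and 764 lower, the tissue difference had 2812 calls, and the block changed no call among the 89 genes. Same-numbered shoot arrays of 3 h and 0.5 h did not deviate together (r = -9e-04 across probe sets), so the numbers are not shown to pair the samples. 2 arrays per group limit the precision, and dim signals have no order.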
